A study of Mus musculus with 18 samples.

Results

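The Arp2/3 complex and beta-actin are described here as mRNA in single mouse oocytes, through 10 genes. The genes are Actb, Actr2, Actr3, Arpc1a, Arpc1b, Arpc2, Arpc3, Arpc4, Arpc5 and Arpc5l. They were taken by mouse symbol, after the gene identifiers of the deposited tables had been named with GENCODE vM21, and they are 10 of 47069 genes in the tables. All 10 passed the filter on low counts, which kept 12161 genes, and a gene could pass it through any of the groups. The oocytes came from C57BL/6JAusb mice at 2 stages. Metaphase II (MII) oocytes are mature eggs waiting for fertilization, and germinal vesicle (GV) oocytes are immature and still hold an intact nucleus. The groups were MII and GV oocytes of aged mice of 12 months that drank water with 2 g/L NMN (nicotinamide mononucleotide, from which cells make NAD) for 4 weeks, of aged control mice of 12 months on plain water, and of young control mice of 4 weeks on plain water. No genetic change is named, and the labels do not say how many mice gave the oocytes, whether oocytes shared a mouse, or how the MII oocytes came to mature.

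Arp2/3 is the nucleator of branched actin networks. Its actin-like subunits Arp2 (gene Actr2) and Arp3 (Actr3) form the seed of a new filament, ArpC2 and ArpC4 make the core that clamps the complex onto an existing filament, and ArpC1, ArpC3 and ArpC5 complete it. ArpC1 and ArpC5 each come from a pair of paralogous genes, so that a complex holds either Arpc1a or Arpc1b and either Arpc5 or Arpc5l. The WASP, WAVE and WASH proteins switch the complex on, and coronins, arpin and glia maturation factors hold it back or take branches apart. In mouse oocytes Arp2/3 is known for the actin-rich cap over the spindle, for the cytoplasmic streaming that holds the MII spindle at the cortex, and for the unequal division that makes the polar body. Transcription is largely silent in fully grown GV oocytes and in MII oocytes, so these cells work with stored mRNA.

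Each library was made from 1 oocyte, after the nucleus had been spun out of a mild lysate. The 18 libraries gave 16 oocytes. A pair of young GV files were identical and were counted once, as GV young control 1. GV aged control 2-2 held 5009 counts in all, with 0 counts for all 10 genes, and was left out. This left 3 MII aged NMN, 3 MII aged control, 3 MII young control, 3 GV aged NMN, 2 GV aged control and 2 GV young control oocytes. They are called by their replicate number, and numbers such as 2-1 are those that the titles give with a second batch. Totals ran from 2756181 to 5586894 counts, so that 3 counts stood for 0.537 to 1.09 CPM, where CPM is a gene's count relative to the total of its library. MII aged NMN 1 and 2 stood apart, with 6400 and 5640 genes detected and 43.0 and 33.2% of counts from mitochondrial genes, against 7704 to 13756 genes and 2.76 to 24.4% in the other 14 oocytes. Of 15 oocyte marker genes, 8 to 14 were detected in MII aged NMN oocytes, and 14 or 15 in every other oocyte. The leukocyte marker Ptprc and the granulosa cell markers Foxl2, Amh and Amhr2 were at 0 in all 16. Other markers on the same lists were detected. Of the cumulus and granulosa list, Cyp19a1 was at 0 in 3 oocytes and Nr5a2 in 1, and Gja1 reached 182 CPM in MII young control. C1qb of the immune list was at 0 in 5 oocytes and reached 227 CPM in GV aged control.

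Because no mouse is named, each group is 1 sample of its condition and no test between groups was made. The SD is the spread between oocytes, and intervals cover counting error alone. Values below are CPM scaled between libraries (TMM), except where they are TPM, which also divide by length and serve to compare genes with each other. Both are shares of a library's mRNA, and the amount of mRNA per oocyte was not measured. Log2 ratios compare group means after 1 CPM was added to each, and folds are plain ratios of the means. A gene is counted as higher or lower when that ratio is at least 2-fold, a log2 ratio of 1 or more in size. The share of all kept genes without overlap between 2 groups is not given, so a lack of overlap only describes the oocytes.

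The paralogs that give ArpC1 are shown first, since the results turn on telling them apart. The coding sequences of Arpc1b and Arpc1a, for proteins of 372 and 370 residues, are 72.5% identical, and their longest identical run is 21 bases. The first 90 coding bases (GRCm38, plus strand of chromosome 5, spliced across introns) have 20 differences, which are in capitals.
Arpc1b: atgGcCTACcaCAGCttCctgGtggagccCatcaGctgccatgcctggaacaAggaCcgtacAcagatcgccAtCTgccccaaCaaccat
Arpc1a: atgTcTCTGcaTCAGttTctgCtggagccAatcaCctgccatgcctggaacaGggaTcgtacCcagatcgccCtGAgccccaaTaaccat
Arpc5l and Arpc5, at 153 and 151 residues, are 71.3% identical over their coding bases, also with no identical run above 21 bases. Actb is closer to its sister Actg1, the gene of gamma-actin, with 88.7% identity and a run of 62 bases.

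The 3′ ends are shown because stored oocyte mRNAs carry signals there that control their poly(A) tails during maturation. The cytoplasmic polyadenylation element (searched as TTTTAT or TTTTAAT on the mRNA strand, in the last 100 bases of the principal transcript) was found in 1 of the 10 genes, Actr2, and in 19.7% of 10588 kept genes with such a transcript. The polyadenylation signal (AATAAA or ATTAAA in the last 40 bases) was found in 9 of 10 and in 77.1% of the same genes. Arpc1b had neither, in any of its 3 complete coding transcripts. Sites of 30 bases are given for Actr2, for the most abundant subunit genes Arpc3 and Arpc5l, and for Actb, from the GRCm38 genome, with the motifs in capitals.
Actr2 (chr11:20062316-20062345, minus strand): cttctTTTTAATtaagaaAATAAAtaagat
Arpc3 (chr5:122406148-122406177, plus strand): attgaATTAAAacatttttgagaaaaagct
Arpc5l (chr2:39015848-39015877, plus strand): ttatttAATAAAgtgccaaacctttaatga
Actb (chr5:142903122-142903151, minus strand): agaccAATAAAagtgcacaccttaccttac
In Actr2 the element starts 37 bases and the signal 24 bases before the end of the transcript. These matches describe letters in a window and say nothing of which factor is bound there.

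The subunit genes were far from equal in mRNA. Over 16 oocytes the median level was 1158 TPM for Arpc3, 432.8 TPM for Arpc5l and 224 TPM for Arpc1b. It was 59.6 TPM for Arpc2, 32.3 TPM for Actr2, 20.7 TPM for Arpc4, 11.1 TPM for Actr3, 10.6 TPM for Arpc5 and 3.52 TPM for Arpc1a. Actb stood among the lower of these, at 16.9 TPM. With the paralogs of ArpC1 and of ArpC5 added up, the mean level of the highest subunit was 697 times that of the lowest in GV young control, where ArpC3 and ArpC4 were the ends, and 41.1 times in MII young control, where ArpC1 and ArpC4 were. The other groups lay between these, from 48.7 to 199.6 times.

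The make-up of this mRNA differed between the stages. Arpc3 was the highest subunit gene in all 7 GV oocytes, with 55.4 to 82.3% of the summed TPM of the 9 subunit genes. Arpc1b was highest in 4 of the 6 MII control oocytes, with 63.0 and 44.2% of the sum in MII young control 2 and 2-1, and 44.1 and 45.7% in MII aged control 1 and 2. Its share in GV oocytes was 0.141 to 12.8%. Arpc3 held the first place in MII young control 1, MII aged control 2-1 and MII aged NMN 2-1, and Arpc5l in MII aged NMN 1 and 2, with 60.1 and 88.6%. The sum itself was 908 ± 247 TPM in MII aged NMN, 1940 ± 234 TPM in MII aged control and 2998 ± 693 TPM in MII young control (SD, n = 3 oocytes each). In GV oocytes it was 2754 ± 238 TPM in aged NMN (n = 3), 3011 ± 36.1 TPM in aged control and 2331 ± 456 TPM in young control (n = 2 each). The MII groups did not overlap in this sum, though the highest aged control oocyte, at 2204 TPM, lay just under the lowest young control oocyte, at 2208 TPM. In scaled CPM the same sum was 1635, 1809 and 1216 in MII aged NMN, 1848, 2334 and 1782 in MII aged control and 3033, 2927 and 2833 in MII young control, so that aged NMN and aged control overlapped there.

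**Figure D1:**
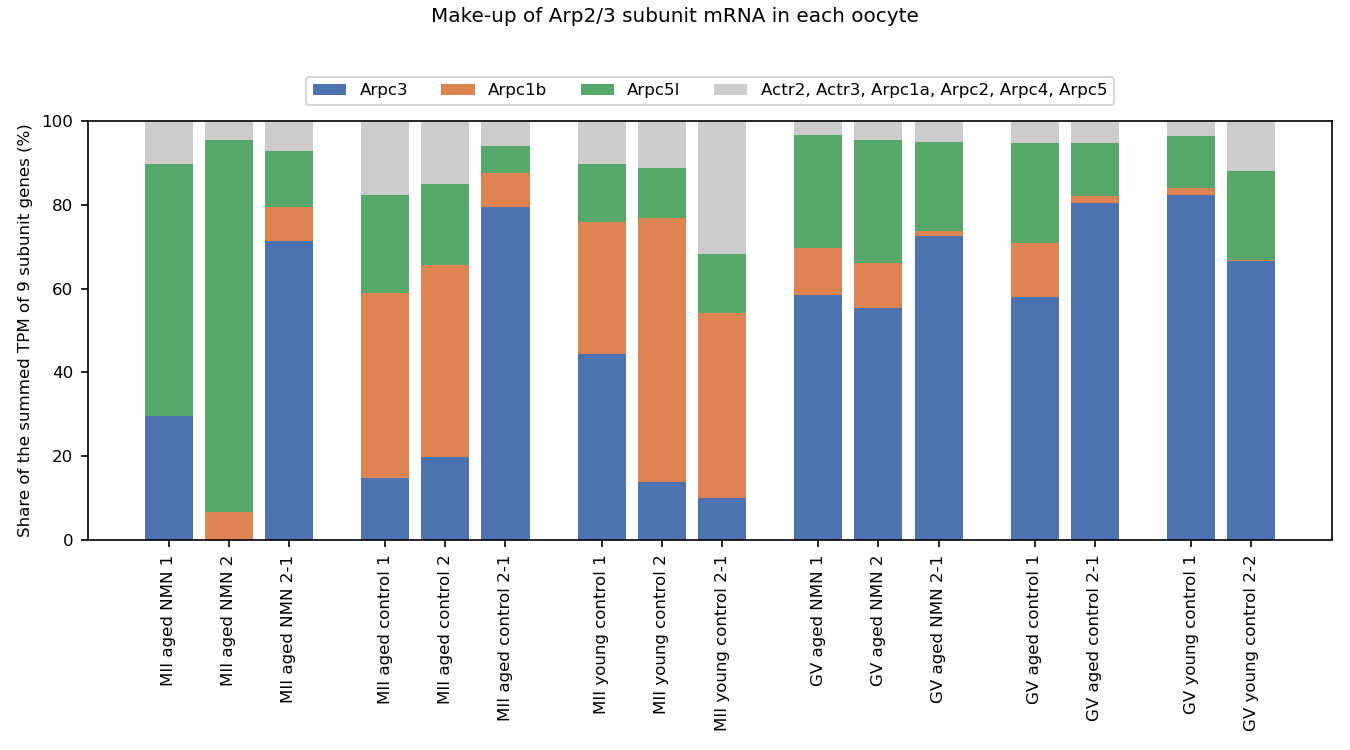
Share of the summed TPM of the 9 Arp2/3 subunit genes held by Arpc3, Arpc1b, Arpc5l and the remaining 6 genes (y axis, percent) in each of 16 oocytes (x axis). Arpc3 leads in all 7 GV oocytes, Arpc1b in 4 of 6 MII control oocytes and Arpc5l in MII aged NMN 1 and 2.

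Beta-actin (Actb, chr5:142903115-142906754, minus strand) builds the filaments that Arp2/3 branches. It had 50.8, 96.0 and 134 CPM in MII young control oocytes 1, 2 and 2-1, against 14.9 and 12.3 CPM in GV young control 1 and 2-2. Every young MII oocyte was above both young GV oocytes, by 6.88-fold in the means (log2 ratio 2.70). In aged control mice it had 40.8, 15.3 and 18.5 CPM in MII oocytes and 60.3 and 38.8 CPM in GV oocytes, which overlapped. In aged NMN mice it had 0, 1.24 and 5.00 CPM in MII oocytes against 64.2, 64.9 and 26.1 CPM in GV oocytes, 24.9-fold lower in MII with no overlap. The 3 MII aged NMN libraries held 20 counts of Actb in all, 1.79 CPM before scaling (95% Poisson interval 1.09 to 2.77), against 588 counts and 53.0 CPM (48.8 to 57.5) in the 3 GV aged NMN libraries. In order of the means, Actb ran from 93.5 ± 41.5 CPM in MII young control over 51.8 ± 22.2 in GV aged NMN, 49.6 ± 15.2 in GV aged control, 24.9 ± 13.9 in MII aged control and 13.6 ± 1.89 in GV young control to 2.08 ± 2.60 CPM in MII aged NMN. Neighbours in this order overlapped, except that GV young control and MII aged NMN did not, and neither did MII aged control and GV young control. Actg1, which shares 337 bases with Actb at 91.1% identity, averaged 4.68 ± 7.85 CPM in MII aged NMN and 56.8 ± 43.7 CPM in GV aged NMN, so both genes were lower there, and how reads were shared between them is not given in the sources used here. Lrrc58, with 1347 similar bases, averaged 23.6 ± 21.0 CPM in MII aged NMN, above Actb there, and reached 40.3 CPM in an oocyte. It averaged 4.71 ± 2.46 CPM in GV aged NMN and 4.31 ± 4.005 CPM in MII aged control. The part of Lrrc58 in the counts of Actb was not tested.

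**Figure D2:**
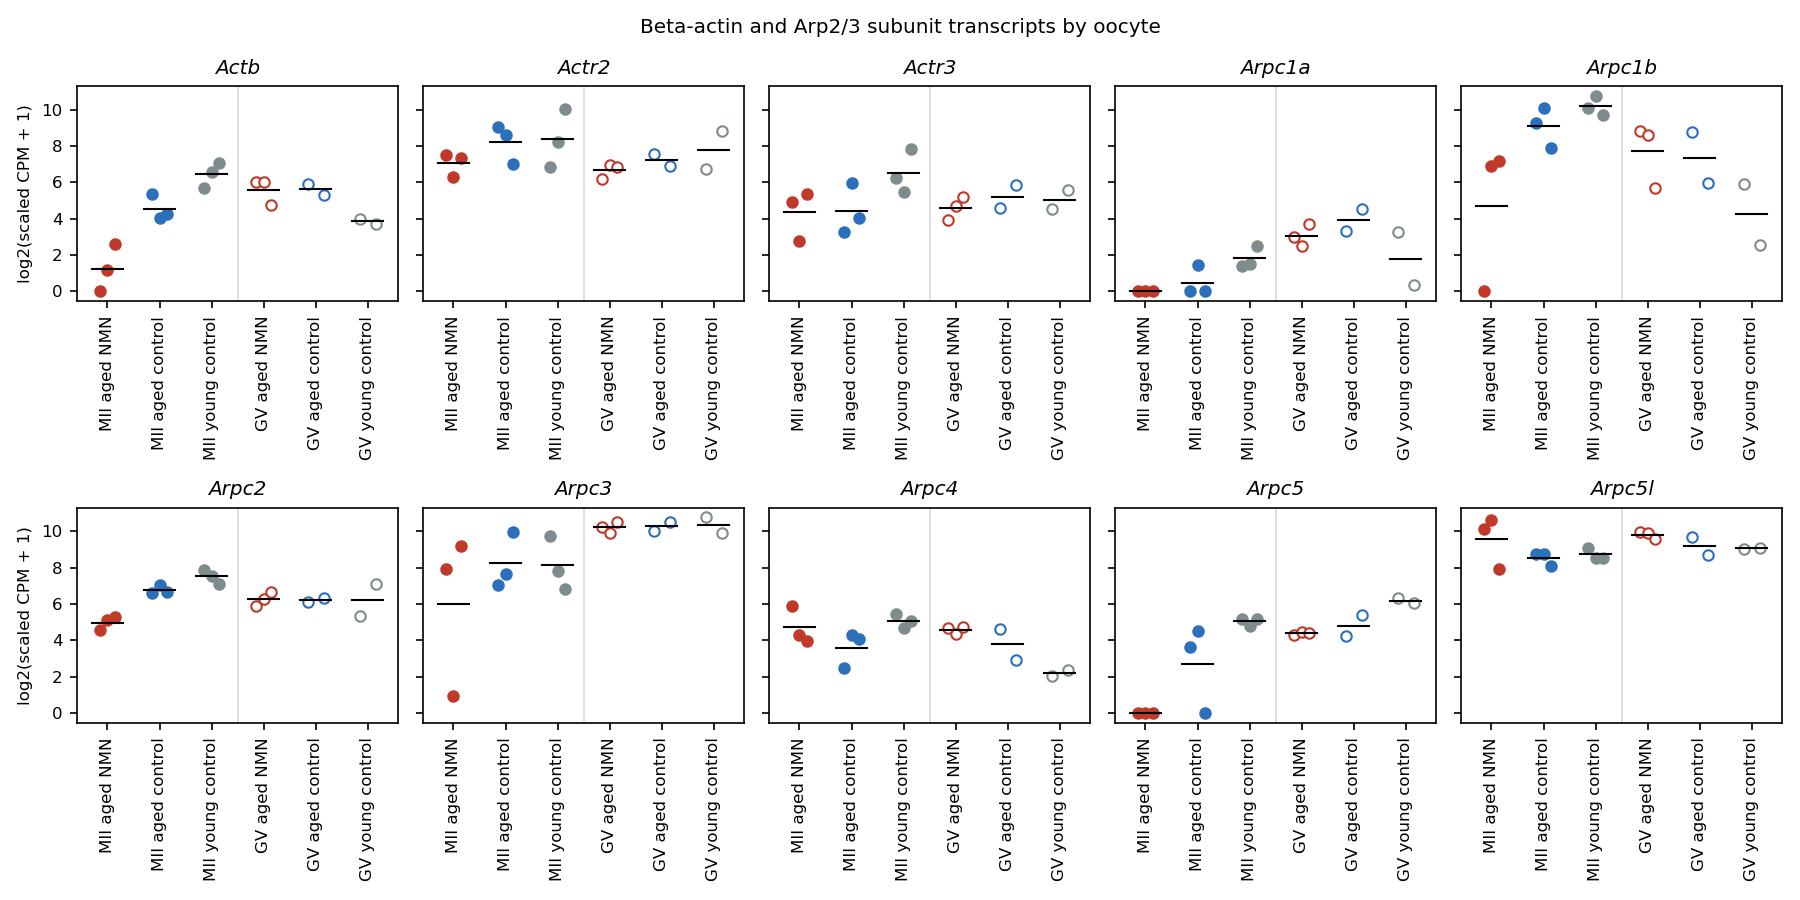
Scaled CPM plus 1 on a log2 axis for each of the 10 genes. Points are oocytes (filled MII, open GV, red aged NMN, blue aged control, grey young control) and bars are means of the log2 values. Actb is lowest in MII aged NMN and highest in MII young control, and Arpc3 is lower in MII than in GV oocytes of the same condition without overlap in all 3 conditions.

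Arp2 and Arp3 are the seed of the branch. Actr2 (chr11:20062304-20112913, minus strand) had 116, 297 and 1076 CPM in MII young control and 107 and 460 CPM in GV young control, with overlap. It was 348 ± 203 CPM in MII aged control and 152 ± 47.0 CPM in GV aged control, a 2.29-fold higher mean that also overlapped. In aged NMN mice it was 140 ± 56.0 CPM in MII and 103 ± 27.9 CPM in GV oocytes. Actr3 (chr1:125392905-125435727, minus strand) had 74.9, 42.6 and 226 CPM in MII young control and 21.9 and 47.5 CPM in GV young control. Its mean was 3.30-fold higher in young MII oocytes, and oocyte 2-1 carried much of that. The log2 ratio of 1.69 was 0.74 without MII young control 2-1 and 2.33 without GV young control 2-2. Actr3 had 29.2, 5.89 and 39.7 CPM in MII aged NMN and 14.4, 25.2 and 35.4 CPM in GV aged NMN, so the stages overlapped fully there, and they overlapped in aged control as well.

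ArpC1 is the propeller-shaped subunit, and its paralogs differed widely in level. Arpc1b (chr5:145114215-145130705, plus strand) had 1110, 1743 and 837 CPM in MII young control against 58.7 and 4.96 CPM in GV young control. No oocytes overlapped, and the ratio of means was 38.7-fold (log2 ratio 5.23). The pooled counts stood for 1354 CPM before scaling (95% Poisson interval 1335 to 1373) in MII and 31.3 CPM (27.5 to 35.4) in GV young control. The log2 ratio moved with the GV oocyte used, and was 7.69 without GV young control 1 and 4.37 without GV young control 2-2. In aged control mice Arpc1b had 630, 1081 and 236 CPM in MII oocytes and 443 and 60.7 CPM in GV oocytes, which overlapped. Aged NMN mice had 0, 119 and 143 CPM of it in MII oocytes and 461, 386 and 50.7 CPM in GV oocytes, where the overlap came from GV aged NMN 2-1. The group means were in the order MII young control (1230 ± 465 CPM), MII aged control (649 ± 423), GV aged NMN (299 ± 219), GV aged control (252 ± 271), MII aged NMN (87.6 ± 76.8) and GV young control (31.8 ± 38.0 CPM), and each neighbouring pair in it overlapped.

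Arpc1a (chr5:145083830-145108761, plus strand) lies beside Arpc1b on the same strand and was low throughout. In MII oocytes it had 0 counts in all 3 of aged NMN, in which 3 counts over the group would be 0.335 CPM, then 0, 1.75 and 0 CPM in aged control and 1.67, 1.87 and 4.75 CPM in young control. In GV oocytes it had 7.09, 4.62 and 11.9 CPM in aged NMN, 8.94 and 22.1 CPM in aged control, and 8.50 and 0.261 CPM in young control. Both aged conditions were lower in MII with no overlap, at least 23.5-fold in aged NMN and 26.6-fold in aged control. Arpc1b made up 99.1 to 100% of the TPM of the pair in the 8 MII oocytes that held either, against 75.9 to 99.03% in the 7 GV oocytes. Other genes overlap both. The span of Arpc1b shares 1937 bases with that of Pdap1 on the opposite strand, 931 of them in a stretch common to their transcripts, and the strand of counting is not given in the sources used here. Pdap1 was at 98.2 ± 99.8 CPM in MII young control and 84.1 ± 48.5 CPM in GV young control. It was at 134 ± 81.0 CPM in MII aged control and 51.7 ± 17.1 CPM in GV aged control. In aged NMN it was at 107 ± 119 CPM in MII, where Arpc1b averaged 87.6 CPM, and 40.35 ± 12.7 CPM in GV oocytes. The part of Pdap1 in the counts of Arpc1b was not tested. The span of Arpc1a shares 201 bases with Kpna7 on the opposite strand, at 1.24 to 222 CPM.

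ArpC2 and ArpC4 form the clamp. Arpc2 (chr1:74236084-74268209, plus strand) had 237, 187 and 138 CPM in MII young control and 38.9 and 134 CPM in GV young control, which came close without overlapping. It had 97.5, 132 and 101 CPM in MII and 69.1 and 78.8 CPM in GV oocytes of aged control mice, again without overlap, at 1.49-fold. The order in aged NMN mice was the other way, with 22.5, 33.5 and 37.5 CPM in MII and 58.8, 76.0 and 98.8 CPM in GV oocytes, 2.50-fold lower in MII. Arpc4 (chr6:113378115-113390448, plus strand) had 42.3, 24.9 and 31.8 CPM in MII young control and 3.09 and 4.17 CPM in GV young control, 9.09-fold higher in MII with no overlap. The stages overlapped for Arpc4 in both aged conditions, with means of 30.6 ± 23.9 CPM (MII) and 23.2 ± 3.63 CPM (GV) in aged NMN and 12.8 ± 7.26 CPM (MII) and 15.2 ± 12.2 CPM (GV) in aged control.

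ArpC3 is the subunit bound to Arp3. Arpc3 (chr5:122391878-122414184, plus strand) was lower in MII oocytes in all 3 conditions. It had 244, 0.931 and 573 CPM in MII aged NMN against 1201, 972 and 1444 CPM in GV aged NMN, 4.42-fold lower in MII. In aged control mice it had 132.5, 199 and 1011 CPM in MII and 1052 and 1461 CPM in GV oocytes, 2.81-fold lower in MII. In young control mice it had 865, 228 and 111 CPM in MII and 1751 and 978 CPM in GV oocytes, 3.40-fold lower in MII. No MII oocyte reached a GV oocyte of its own condition, but MII aged control 2-1 lay only just under GV aged control 1. Arpc3 varied little between GV oocytes, with a coefficient of variation of 0.234 over 7, and strongly between MII oocytes, with 0.956 over 9.

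ArpC5 sits next to ArpC1 and comes in 2 forms. Arpc5l (chr2:39005348-39015877, plus strand) had 966 ± 663.5 and 905 ± 135 CPM in MII and GV aged NMN. It had 379 ± 92.1 and 617 ± 283 CPM in MII and GV aged control, and 433 ± 102 and 539 ± 17.1 CPM in MII and GV young control. Its coefficient of variation was 0.31 over 7 GV oocytes and 0.74 over 9 MII oocytes. With all oocytes no stage comparison of Arpc5l passed 2-fold. In aged NMN mice its log2 ratio of MII over GV was 0.095 with all oocytes, -1.87 without MII aged NMN 1 and 2, and -1.60 between the oocytes titled 2-1. Arpc5 (chr1:152766542-152775597, plus strand) had 0 counts in all 3 MII aged NMN oocytes and in MII aged control 2-1. The other MII oocytes had 11.6 and 21.5 CPM in aged control and 35.4, 26.3 and 35.6 CPM in young control. GV oocytes had 18.8, 20.9 and 20.4 CPM in aged NMN, 17.5 and 40.5 CPM in aged control, and 79.8 and 64.2 CPM in young control. Arpc5 was thus at least 59.7-fold lower in MII than in GV aged NMN, and 2.22-fold lower in MII than in GV young control, both without overlap. The bound of 59.7-fold covers depth alone, and MII aged NMN 1 and 2 had the fewest genes detected of all oocytes. Arpc5l held 90.8 to 100% of the TPM of this pair in every oocyte. Its gene shares 277 bases with Rpl35 on the opposite strand, a ribosomal protein gene that had 70.9 ± 69.8 CPM in MII and 1718 ± 560.4 CPM in GV young control, and its part in the counts of Arpc5l was not tested.

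As a group the 10 genes were counted against all kept genes. In young control mice 5 of 10 were at least 2-fold higher in MII oocytes (Actb, Actr3, Arpc1b, Arpc2 and Arpc4), where 36.3% of all genes were, and 2 were lower (Arpc3 and Arpc5), where 25.8% of all genes were. The median log2 ratio was 0.96 for the 10 and 0.35 for all genes. Cumulus and granulosa markers summed to 42.5 to 328 CPM in MII young control, highest in oocyte 2-1, and to 27.55 to 61.0 CPM in GV young control. Their part in this comparison was not tested. In aged control mice 2 were higher in MII (Actr2 and Arpc1b; 16.9% of all genes) and 3 were lower (Arpc1a, Arpc3 and Arpc5; 35.9% of all genes), with medians of -0.58 and -0.29. In aged NMN mice 0 were higher (16.9% of all genes) and 6 were lower (Actb, Arpc1a, Arpc1b, Arpc2, Arpc3 and Arpc5; 46.7% of all genes), with medians of -1.53 and -0.82. The all-gene medians lie away from 0, so each ratio stands against that shift. Without MII aged NMN 1 and 2 together, which leaves 1 MII oocyte, the log2 ratio in aged NMN was -3.14 for Actb and -1.07 for Arpc3. The median of the 10 was then -1.06 and that of all genes -1.11.

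Single oocytes decided several of these counts. In young control mice Arpc2 was at 0.48 without GV young control 1, 0.90 without MII young control 1 and 2.24 without GV young control 2-2. Arpc5 there was at -0.96 without GV young control 1, and Arpc3 at -3.00 without MII young control 1. In aged control mice the 2 higher genes became 0 without GV aged control 2-1, with Actr2 at 0.91 and Arpc1b at 0.55. Arpc1b was at 0.78 without MII aged control 2 and 3.40 without GV aged control 1, and Actr2 at 0.76 without MII aged control 1. Arpc3 there was at -2.92 without MII aged control 2-1, and Arpc1a at -4.05 without MII aged control 2 and -2.65 without GV aged control 2-1. Arpc5 there ranged from -0.62 without GV aged control 2-1 and -0.77 without MII aged control 2-1 to -2.14 without MII aged control 2. Leaving out MII aged NMN 2-1 moved Actb to -5.03 and Arpc3 to -3.29 in aged NMN mice, and the count of 6 lower genes was 6 without each oocyte in turn. The median of all genes ran from -1.33 to -0.66 over these settings.

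The titles split the oocytes into those with and those without a 2-n number, and ratios were taken within each set, at 1 or 2 oocytes a group. In 2 libraries the titles leave the set unclear. GV young control 1 was also deposited under a 2-1 title, and the share of its detected genes with an expected count over 0.005 from a whole number, 14.5%, lay within the 11.9 to 14.6% of the 2-n titles, where the others had 19.5 to 29.0%. The title of MII aged NMN 2 says batch 2 without a further number. Both were put with the other titles. Among 2-n titles, MII over GV gave 3.35 for Actb, 7.14 for Arpc1b, -3.12 for Arpc3 and 2.67 for Arpc4 in young control. Among the other titles it gave 2.22, 4.58, -1.68 and 3.08 in the same order of genes. Arpc2 in young control was at 0.038 among 2-n titles and 2.42 among the others, and Arpc5 was at -0.83 and -1.34. With GV young control 1 put among the 2-n titles, MII over GV in young control was 3.21 for Actb, 4.68 for Arpc1b, 0.66 for Arpc2, -3.61 for Arpc3, 2.83 for Arpc4 and -0.998 for Arpc5 there, and the other titles held no young GV oocyte. In aged control Arpc3 was at -0.53 among 2-n titles and -2.66 among the others, and Arpc1b at 1.94 and 0.95. In aged NMN Actb was at -2.18 and -5.34, Arpc3 at -1.33 and -3.14, and Arpc1b at 1.48 and -2.81, so that Arpc1b had no common direction there. With MII aged NMN 2 put among the 2-n titles, Actb was at -2.72, Arpc3 at -2.33 and Arpc1b at 1.36 among them. Measured in TPM in place of scaled CPM, Arpc5 in young control overlapped between the stages, at -0.41, and Arpc5 in aged control was at -0.93. With RLE size factors Arpc2 in young control was at 0.78 and Actr2 in aged control at 0.996, both under 2-fold.

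**Figure D3:**
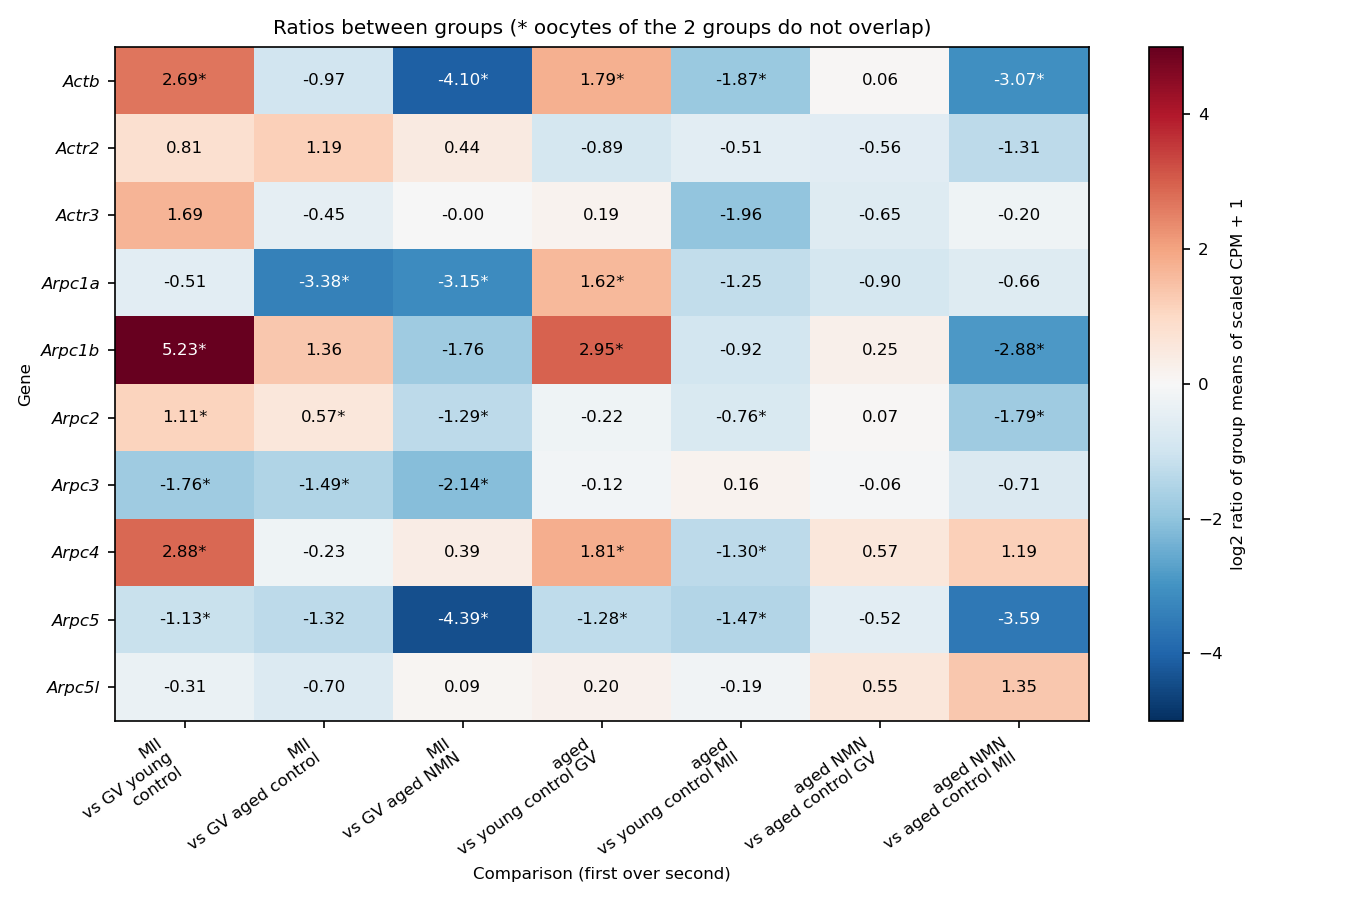
Log2 ratios of group means (scaled CPM plus 1, colour and printed value) for the 10 genes (rows) in 7 comparisons (columns), the group named first over the second. A star marks genes whose oocytes do not overlap between the groups. Actb and Arpc4 are higher in aged than in young control GV oocytes and lower in aged than in young control MII oocytes.

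Age was compared between control mice of 12 months and 4 weeks within each stage. The age, NMN and stage comparisons share control groups, so they are not independent of each other. In GV oocytes 4 of 10 genes were at least 2-fold higher in aged control (Actb, Arpc1a, Arpc1b and Arpc4), where 31.1% of all genes were, and 1 was lower (Arpc5), where 12.2% of all genes were. These 5 did not overlap between 2 and 2 oocytes, for which the share of all kept genes without overlap is not given. Actb was 3.65-fold higher in aged GV oocytes, Arpc1b 7.92-fold, Arpc4 4.20-fold and Arpc1a 3.55-fold, and Arpc5 was 2.48-fold lower. Arpc4, for instance, had 23.9 and 6.63 CPM in GV aged control and 3.09 and 4.17 CPM in GV young control. Without GV aged control 1 the log2 ratio of Arpc1b was 0.91 in place of 2.95, that of Arpc4 0.72 in place of 1.81 and that of Arpc5 -0.81 in place of -1.28. Arpc1b moved to 5.41 without GV young control 1, 2.08 without GV young control 2-2 and 3.76 without GV aged control 2-1. Arpc1a, at 1.62, was at 0.80 without GV young control 2-2, 0.89 without GV aged control 2-1 and 3.71 without GV young control 1. Without GV aged control 2-1, Arpc4 was at 2.42 and Arpc5 at -1.98. Actb stayed between 1.45 and 2.07 without each oocyte in turn. Within the 2-n titles and within the others, aged over young control gave 1.59 and 1.95 for Actb, 3.37 and 2.90 for Arpc1b, 0.56 and 2.60 for Arpc4, 4.20 and 0.067 for Arpc1a, and -0.65 and -2.12 for Arpc5. With GV young control 1 put among the 2-n titles these were 1.45 for Actb, 0.91 for Arpc1b, 0.72 for Arpc4, 2.103 for Arpc1a and -0.81 for Arpc5, and the other titles gave no value. Arpc5 was at -0.93 in TPM. The 14 immune markers added up to 14.2 to 237 CPM in GV aged control, where C1qb reached 227 CPM, and to 8.87 to 9.27 CPM in GV young control, with Ptprc at 0 in all of them. Their part in these differences was not tested.

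In MII oocytes 0 of 10 genes were at least 2-fold higher in aged control (8.45% of all genes) and 5 were lower (Actb, Actr3, Arpc1a, Arpc4 and Arpc5; 22.6% of all genes). The medians were -1.09 for the 10 and -0.27 for all genes. Actb was 3.76-fold lower, Arpc4 2.57-fold and Arpc5 2.93-fold lower in aged MII oocytes, each without overlap. In TPM the oocytes of Actb and of Arpc5 overlapped between the ages, at log2 ratios of -2.06 and -1.44. Within the 2-n titles and within the others the scaled CPM gave -2.79 and -1.36 for Actb, -0.98 and -1.48 for Arpc4, and -5.19 and -0.86 for Arpc5. Arpc2 did not overlap either, at 1.70-fold lower. Actr3 had 8.80, 61.8 and 15.6 CPM in MII aged control and 74.9, 42.6 and 226 CPM in MII young control. These overlapped, and the ratio of -1.96 was -1.01 without MII young control 2-1 and -3.13 without MII aged control 2. Arpc1a was at 0.584 ± 1.01 CPM in aged and 2.77 ± 1.72 CPM in young control MII oocytes, close to the level of 3 counts, and its ratio of -1.25 was -0.81 without MII young control 2-1 and -1.91 without MII aged control 2. Arpc4 was at -0.92 without MII aged control 1. Arpc5 was at -0.93 without MII aged control 2-1 and -2.30 without MII aged control 2. Arpc3 and Arpc5l were within 2-fold with all oocytes, at 0.16 and -0.19. Arpc3 had no common direction, at 3.17 among 2-n titles and -1.72 among the others, and from -1.27 to 1.40 with an oocyte left out. Cumulus and granulosa markers summed to 17.4 to 107 CPM in MII aged control and 42.5 to 328 CPM in MII young control, and their part was not tested.

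NMN was compared with plain water in aged mice. In GV oocytes 0 of 10 genes were at least 2-fold higher in aged NMN (8.54% of all genes) and 0 were lower (12.3% of all genes), and both medians were near 0. The 10 log2 ratios ran from -0.90 for Arpc1a to 0.57 for Arpc4, and all 10 genes overlapped between the groups in CPM. In TPM, Arpc1a was over 2-fold lower in aged NMN, at -1.19, and neither it nor Actr2, at -0.81, overlapped between the groups. The smallness of these ratios rests on both GV aged control oocytes together. Without GV aged control 1, which leaves 1 aged control oocyte, Arpc1b was at 2.29, Arpc4 at 1.66 and Arpc5l at 1.12. Arpc1a was then at -1.38 and Actr3 at -1.14, and the medians were -0.11 for the 10 and 0.17 for all genes. Without GV aged NMN 2-1, 1 gene was lower, Arpc1a at -1.27. Within the 2-n titles 1 gene was higher, Arpc4 at 1.81, and within the other titles none passed 2-fold, with Arpc4 at -0.12.

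In MII oocytes 2 of 10 genes were at least 2-fold higher in aged NMN (Arpc4 and Arpc5l; 14.7% of all genes) and 5 were lower (Actb, Actr2, Arpc1b, Arpc2 and Arpc5; 33.1% of all genes). The medians were -1.01 for the 10 and -0.33 for all genes. Actb, at 0, 1.24 and 5.00 CPM in MII aged NMN and 40.8, 15.3 and 18.5 CPM in MII aged control, was 12.0-fold lower. Arpc1b was 7.41-fold and Arpc2 3.54-fold lower. None of these 3 genes overlapped. Arpc5 was at least 33.0-fold lower, but overlapped because MII aged control 2-1 also had 0. Actr2 was 2.49-fold lower with overlap. Arpc4 had 58.0, 18.9 and 14.7 CPM in MII aged NMN and 4.58, 18.3 and 15.6 CPM in MII aged control, and Arpc5l had 1098, 1554 and 246 CPM in MII aged NMN and 433, 432 and 273 CPM in MII aged control, so the higher means came from MII aged NMN 1 for Arpc4 and from oocytes 1 and 2 for Arpc5l. With these 2 oocytes left out, which leaves 1 MII aged NMN oocyte, the medians were -0.88 for the 10 and -0.45 for all genes. The log2 ratios were then -2.11 for Actb (-3.07 with all oocytes), -2.17 for Arpc1b (-2.88), -1.53 for Arpc2 (-1.79), -1.11 for Actr2 (-1.31), 0.18 for Arpc4 (1.19) and -0.62 for Arpc5l (1.35). In TPM, with all oocytes, Arpc4 was at 0.33 and Arpc5l at 0.41, under 2-fold.

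Other oocytes and the title sets bore on these ratios. Between the MII libraries whose titles carry a 2-n number, 1 in each condition, the NMN ratio was -1.70 for Actb, -1.41 for Arpc2 and -0.71 for Arpc1b, and 0.31 for Actr2. Between the remaining titles it was -4.16 for Actb, -1.997 for Arpc2 and -3.82 for Arpc1b, and -1.81 for Actr2. Without MII aged control 1, Actr2 was at -0.88 and Arpc4 at 0.81. Arpc4 was at 0.37 without MII aged NMN 1, Arpc5l at 0.82 without MII aged NMN 2, Arpc5 at -2.77 without MII aged control 2 and Actb at -4.00 without MII aged NMN 2-1. Cumulus and granulosa markers summed to 0 to 55.9 CPM in MII aged NMN and 17.4 to 107 CPM in MII aged control. The part of these markers, of genes detected and of the mitochondrial share in the differences was not tested.

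The other genes of the pathway are given at maturation. Genes named from each list were chosen for the largest ratios between MII and GV young control. Their ratios there are large by that choice, and smaller ones in the aged conditions cannot be read as particular to young mice. Of 25 nucleation-promoting factors and their partners, 20 were kept. Of these, 5 were at least 2-fold higher and 5 lower in MII aged NMN than in GV aged NMN, 7 higher and 5 lower in aged control, and 9 higher and 3 lower in young control. Of all kept genes, 16.9% were higher and 46.7% lower in MII aged NMN, 16.9 and 35.9% in aged control, and 36.3 and 25.8% in young control, and the counts of each list below stand against these. Brk1, the smallest subunit of the WAVE complex, had 77.2 ± 44.9 CPM in MII and 8.89 ± 11.1 CPM in GV young control. Washc4, a subunit of the WASH complex, had 320 ± 199 CPM in MII and 67.8 ± 47.9 CPM in GV young control. Neither overlapped there, and both were within 2-fold between the stages in aged control and in aged NMN mice. Of 6 upstream small GTPases, all kept, 0 were higher and 1 lower in MII aged NMN, 0 and 1 in aged control, and 2 and 0 in young control. These 2 were Arf6, at 4.73-fold with overlap, and Rhoa, at 3.01-fold. Rhoa had 13.5 to 86.6 CPM in MII and 13.3 to 13.4 CPM in GV young control. In aged control mice Rhoa was 4.00-fold lower in MII without overlap.

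Inhibitors and debranching factors of Arp2/3 had 5 of 8 genes kept. None was 2-fold higher in MII in any condition, while 2 were lower in aged NMN, 3 in aged control and 4 in young control. The medians of these 5 log2 ratios were -0.93, -1.26 and -1.45 in that order, against -0.82, -0.29 and 0.35 for all genes. Coro1b, a coronin that takes branches apart, had 1.45 ± 2.51 CPM in MII and 12.9 ± 0.566 CPM in GV aged NMN, 1.89 ± 3.13 and 13.5 ± 3.77 CPM in MII and GV aged control, and 6.94 ± 7.00 and 20.7 ± 10.6 CPM in MII and GV young control. The stages did not overlap in the aged conditions. These are few genes at low levels.

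Other nucleators (10 of 13 kept) had 5 genes higher and 0 lower in MII young control, 4 and 0 in aged control, and 2 and 2 in aged NMN. Daam1, a formin, had 102 ± 15.5 CPM in MII and 40.5 ± 11.4 CPM in GV aged control, without overlap. Diaph1, another formin, had 7.44 ± 7.83 CPM in MII and 44.0 ± 14.4 CPM in GV aged NMN, while its MII young control mean was 6.09-fold above the GV young control mean with overlap. Other actins and Arp paralogs had 6 of 10 genes kept, with 1 higher and 3 lower in MII aged NMN, 0 and 4 in aged control, and 1 and 2 in young control. Turnover and capping factors had 22 of 26 kept, with 5 higher and 13 lower in MII aged NMN, 2 and 10 in aged control, and 7 and 5 in young control. Tmsb10, a thymosin that binds actin monomers, was lower in MII without overlap in all 3 conditions, at 4.91 ± 3.96 CPM in MII and 278 ± 45.6 CPM in GV aged NMN, 30.9 ± 20.2 and 188 ± 18.9 CPM in MII and GV aged control, and 35.3 ± 38.7 and 394 ± 59.3 CPM in MII and GV young control. Capzb, the beta subunit of the protein that caps filament ends, had 0 CPM in MII and 48.7 ± 26.6 CPM in GV aged NMN, 13.7 ± 3.25 and 41.5 ± 7.29 CPM in MII and GV aged control, and 4.02 ± 2.07 and 35.6 ± 11.7 CPM in MII and GV young control. Capza1, an alpha subunit of the same protein, went the other way in young control, with 60.7 ± 77.9 CPM in MII and 7.62 ± 5.24 CPM in GV oocytes. These ran from 11.8 to 150.5 CPM in MII and from 3.91 to 11.3 CPM in GV. Its MII and GV means were 73.2 ± 50.6 and 16.1 ± 4.69 CPM in aged NMN, and 18.0 ± 13.7 and 18.6 ± 9.45 CPM in aged control, both with overlap.

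**Figure D4:**
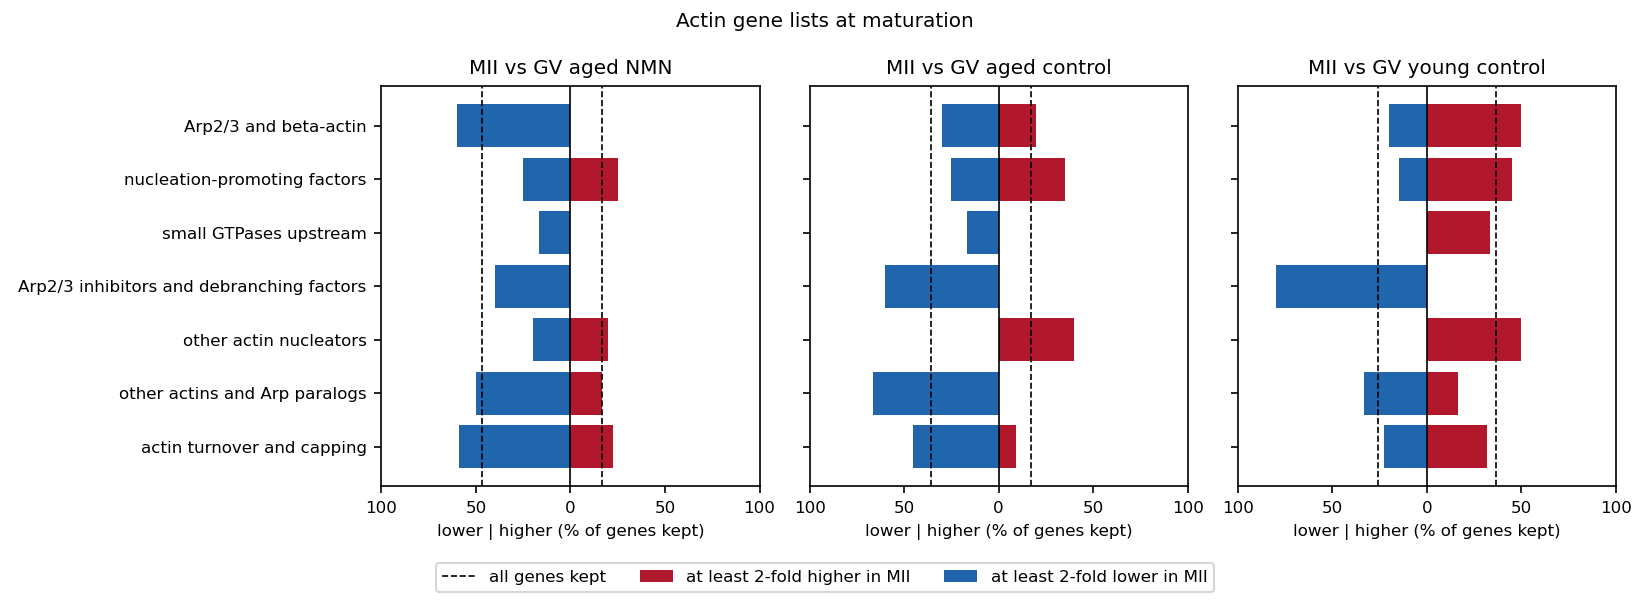
Percentage of genes at least 2-fold higher (red, to the right) or lower (blue, to the left) in MII than in GV oocytes for the 10 genes and 6 lists of actin regulators, in aged NMN, aged control and young control mice. Dashed lines give the same percentages over all 12161 kept genes, for example 36.3% higher and 25.8% lower in young control.

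The 10 genes did not follow a common course from oocyte to oocyte. Over 16 oocytes, Pearson's r of log2(CPM + 1) ran from -0.45 (Actr2 with Arpc5l) to 0.72 (Actb with Arpc1b) over their 45 pairs, with a median of 0.20. These values describe libraries that differ in stage, condition and number of genes detected. Among all kept genes, Tspan14, a tetraspanin, and Lamp1, a lysosomal membrane protein, were among the 3 most like Actb, with r of 0.93 and 0.91. Arpc1b was most like Rnaseh1, which cuts RNA in RNA-DNA hybrids, Rnf5, a ubiquitin ligase of the endoplasmic reticulum membrane, and Tmed9, a cargo receptor of the secretory pathway, with r of 0.96, 0.96 and 0.93.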

How the data were processed

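Oocytes were lysed, nuclei pelleted and libraries made with a TruePrep kit, per the labels' protocols. TopHat2 2.1.1, Cufflinks, Trim Galore 0.4.5 and FastQC 0.11.8, with mm10 and GRCm38, are listed per the submitters' processing notes. The tables carry the columns of RSEM, a tool not in those notes. Per the file headers, the authors deposited an expected count per gene, not normalised, and TPM, made by the authors from counts per effective length. Expected counts were rounded to whole numbers here. The filter was filterByExpr (edgeR 4.0.16; minimum count 10, by group), and counts were scaled by TMM in R 4.3.3 over 16 oocytes. Tables and figures used Python 3.11.15. The ratio code was tested on simulated counts. Sequences and coordinates were read from GRCm38 with GENCODE vM21. Similar genes were sought with BLAST 2.17.0 (at least 90% identity over 200 bases).

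There were 7 comparisons, described without a test because each library is 1 oocyte and no animal is named. Alternatives were other scalings, TPM, no filter, 0.1 CPM added, each oocyte left out, libraries kept, and title sets. Named genes were the 10 members, up to 2 genes per list and direction with the largest ratio between MII and GV young control at 10 CPM or more, and the 3 genes most like Actb and Arpc1b, of which the text names a part. The members and lists were chosen with earlier results of these data known.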

Additional observations from a re-analysis of the deposited data

Results flagged for a closer look

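For the genes below, the same contrast went opposite ways in separate groups, and in scaled CPM the oocytes did not overlap in either. The differences between these effects were not tested.

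Actb, the gene of beta-actin, was higher in aged than in young control GV oocytes by a log2 ratio of 1.79, and in MII oocytes the ratio of aged over young control was -1.87. Arpc4, of the clamp of Arp2/3, had ratios of 1.81 in GV and -1.30 in MII oocytes for the same contrast. Both fell under 2-fold with an oocyte left out, to 0.72 in GV without GV aged control 1 and to -0.92 in MII without MII aged control 1.

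Actb had a log2 ratio of MII over GV of -4.10 in aged NMN mice and 2.70 in young control mice. Arpc2, the other part of the clamp, had ratios of MII over GV of -1.29 in aged NMN mice, 0.57 in aged control mice and 1.11 in young control mice. In young control mice the Arpc2 ratio was 0.038 among 2-n titles and 0.78 with RLE size factors.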

How the results depend on the processing

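No paired analysis was possible because no test was made and the shared numbers in the titles name no common animal. Medians of the log2 ratio over the 10 genes are called M here. Single settings are given where they moved M by more than the spread, an SD between oocytes. Ranges with an oocyte left out are given for every comparison, whether or not they passed the spread. They stayed within it for MII over GV in both aged conditions and for NMN in both stages. For MII over GV in young control (M 0.96), M was 0.65 with RLE size factors, 1.74 with TPM, 1.27 with the identical files kept apart, 1.71 among titles with a 2-n number and 1.29 when the twice-titled library joined them. Leaving out each oocyte gave 0.26 to 2.22. For MII over GV in aged control, M was -0.0015 with the library under 100000 counts kept, and -0.76 to -0.38 with an oocyte left out. In aged NMN it was -1.88 to -1.15 with an oocyte left out.

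For aged over young control in GV oocytes (M 0.19), M was 0.40 with library totals, 0.34 with totals without mitochondrial genes, 0.50 with TPM, -0.38 with the small library kept, 0.40 among titles with and 0.71 among titles without a 2-n number, and 0.39 when the twice-titled library joined those with one. Leaving out an oocyte gave 0.14 to 0.82. In MII oocytes M was -2.18 among 2-n titles and -1.56 to -0.93 with an oocyte left out. For aged NMN over aged control, M was 0.58 in GV oocytes with the small library kept and -0.17 to 0.038 with an oocyte left out. In MII oocytes it was -0.12 among 2-n titles, -0.061 when MII aged NMN 2 joined them, and -1.64 to -0.84 with an oocyte left out.

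Among ratios past 2-fold with all oocytes, directions turned for Arpc1b, MII over GV in aged NMN, to 1.48 among 2-n titles and 1.36 when MII aged NMN 2 joined them. For aged NMN over aged control in MII oocytes they turned for Actr2 (0.31), Arpc4 (-0.084) and Arpc5l (-0.15) among 2-n titles, and for Arpc5l (-0.62) without MII aged NMN 1 and 2. Ratios under 2-fold turned too, such as Arpc1a for MII over GV in young control (-0.51, and 2.19 among 2-n titles) and in aged control Arpc4 (-0.23, and 1.12). For aged over young control in MII oocytes Actr2 (-0.51) was at 1.14 among the other titles. The cause was not tested. Of the other values, 84 medians and 971 single-gene values or shares moved by less than the spread, and 126 single-gene values or shares by more. A move under the spread can still change the sign, because the spread was wide for some genes. Actr2 for MII over GV in young control was at 0.81, and at -0.46 without MII young control 2-1, with a spread of 1.55. The alternatives on the small library, the twice-titled library and MII aged NMN 2, as reported, use groups of 1 to 3 oocytes, and genes at a few counts, such as Arpc1a, are limited by depth. Moving the twice-titled library or MII aged NMN 2 and leaving out MII aged NMN 1 and 2 together were chosen after seeing the data.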
